A study of Macaca mulatta with 19 samples.

Results

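The syndecans are a family of 4 transmembrane proteins, encoded by SDC1 (ENSMMUG00000030922), SDC2 (ENSMMUG00000000963), SDC3 (ENSMMUG00000013519) and SDC4 (ENSMMUG00000048424). They were taken by symbol from a table of 32386 genes, and SDC4 was selected on its read counts, which were higher with testosterone than with cholesterol in these data, so its testosterone values are given as a description without a test. SDC1, SDC2 and SDC3 were taken as the rest of the family. All 4 genes passed the filter on low counts, which kept 15019 genes in the treatment comparisons.

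RNA was sequenced from luteinized granulosa cells, the steroid-making cells of a follicle that has received the ovulatory stimulus, aspirated from the single follicle that each rhesus macaque had selected naturally in a controlled ovulation cycle. From near menarche and for several years the females carried an implant of cholesterol (C, the control) or testosterone (T) and ate either a standard chow or a Western-style diet (WSD). The groups were Chow+C with 4 libraries, Chow+T with 4, WSD+C with 5 and WSD+T with 6, with 1 animal per library, so that every animal in every group carried an implant. The labels also class the oocyte of each follicle, as MI (metaphase I, 8 libraries), MII (metaphase II, 4), degenerating (6) or GV (germinal vesicle, 1). The classes were spread unevenly: among Chow+C follicles 3 were MI and 1 MII, Chow+T held no MI but 2 MII, 1 degenerating and 1 GV, WSD+C held 3 MI and 2 degenerating, and WSD+T held 2 MI, 1 MII and 3 degenerating. A library is named by its group and a number, so Chow+C 2 is the control library numbered 2.

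Syndecans carry heparan sulfate, a long sulfated sugar chain that holds growth factors, chemokines and matrix proteins at the cell surface. Their short cytoplasmic tails bind adaptor proteins such as syntenin, and metalloproteinases can shed the outer part of the molecule. SDC1 is the syndecan of epithelia and of plasma cells, SDC2 is prominent in mesenchymal cells, SDC3 in the nervous system, and SDC4 is widely expressed and acts with integrins in focal adhesions. In the rat, heparan sulfate proteoglycans of granulosa cells bind antithrombin, and in the mouse ovary syndecan-4 has been described in the granulosa cells of atretic follicles.

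Libraries held between 28832132 and 56385679 counts in genes. Of 11 measured granulosa markers, 10 were at 1 CPM (counts scaled to a fixed library total) or more in every library, and their summed level was 5430 to 15086 CPM in all libraries except WSD+C 4, where it was 1478 CPM. WSD+C 4 and WSD+T 6 stood apart with the highest leukocyte marker scores (mean log2 CPM of 11 genes), 7.15 and 7.55, against -0.16 to 4.73 in the other libraries. Of 12 leukocyte markers, 4 reached 1 CPM in all libraries, and RAC2 was at 0 in all of them. Chow+C 2 had the lowest share of reads in genes, 49.1%. The syndecan values that rest most on one of these libraries are also given without it.

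SDC4 was lowest in control animals, intermediate with the diet alone and highest with testosterone alone. Its level, in CPM after TMM scaling, was 19.6, 14.8, 15.1 and 15.3 in the 4 Chow+C libraries. It was 37.1, 41.6, 68.4 and 34.2 CPM in Chow+T. Each Chow+T library was thus above each control. In WSD+C the 5 libraries were at 23.6, 23.5, 29.4, 25.4 and 30.0 CPM, a narrow band above all controls and below all Chow+T libraries. The 6 WSD+T libraries ran from 18.8 CPM through a median of 32.9 to 51.1 CPM, and overlapped both WSD+C and Chow+T. Of the 15 libraries outside the control group, 14 were above every control, the exception being WSD+T 4 at 18.8 CPM. The share of all genes with WSD+C below every Chow+T library was not counted. Nor was the share with 14 of these 15 libraries above every control. SDC4 was chosen on its counts in these libraries, so nothing is read from its order. In bulk samples such as these, fewer cells of a type and less RNA per cell cannot be told apart.

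**Figure D1:**
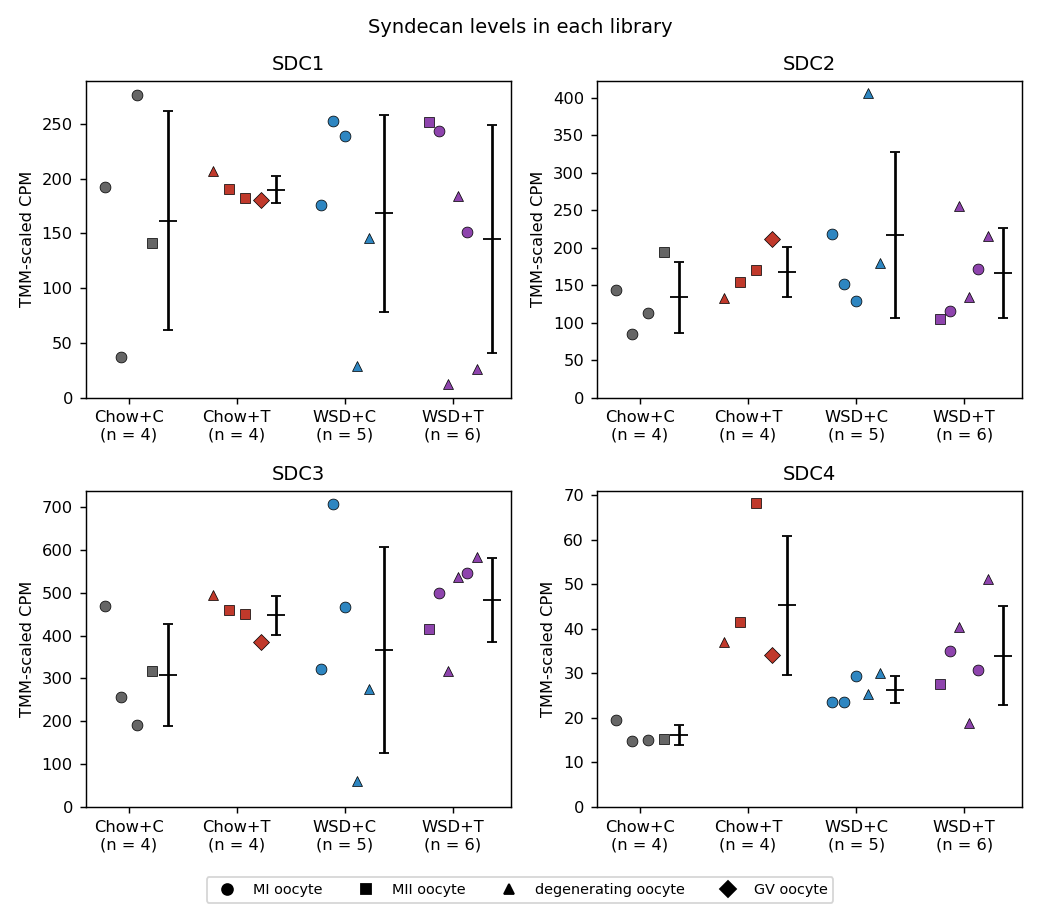
TMM-scaled CPM (vertical axes, linear from 0) of each syndecan in the 19 libraries by treatment group, with the marker shape giving the oocyte class and the bar the mean ± SD. SDC4 lies at 14.8 to 19.6 CPM in Chow+C and at 34.2 to 68.4 CPM in Chow+T, while SDC1 has 4 libraries between 12.3 and 37.0 CPM and the other 15 between 141 and 276 CPM.

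Group means of SDC4 were 16.2 ± 2.31 CPM (SD, n = 4) in Chow+C, 26.4 ± 3.12 CPM (n = 5) in WSD+C, 34.0 ± 11.1 CPM (n = 6) in WSD+T and 45.3 ± 15.7 CPM (n = 4) in Chow+T. In this order only the first pair of neighbours, Chow+C and WSD+C, did not overlap. On chow the fitted log2 fold change with testosterone was 1.48 (SE 0.263, 95% CI 0.93 to 2.04), a fold of 2.80. SDC4 was chosen for its rise with testosterone, so its testosterone values on either diet are descriptions. Of all genes tested, 1.32% had every Chow+T library above every Chow+C library, and nothing is read from this for SDC4. On the Western-style diet the fitted value for SDC4 was 0.36 (SE 0.222, CI -0.10 to 0.83), a fold of 1.29. The 2 values differed by -1.12 (SE 0.340, CI -1.83 to -0.40). This is again a description, because it is made of the testosterone values for which the gene was chosen. The chow value was 1.22 without Chow+T 3, the library with the most SDC4. The value on the Western-style diet was 0.21 without WSD+T 6, the library with the highest leukocyte score.

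The other syndecans gave no call with testosterone. EdgeR's quasi-likelihood test, adjusted by Benjamini-Hochberg across every tested gene, called 0% of 15019 genes on chow, where 7.18% were at an unadjusted p under 0.05, and 0% on the Western-style diet, where 3.86% were. DESeq2 called 5 genes on chow (0.0333%) and 0 on the Western-style diet. On chow the log2 fold changes were 0.23 for SDC1 (CI -1.37 to 1.84, adjusted p = 0.964), 0.32 for SDC2 (CI -0.43 to 1.07, adjusted p = 0.864) and 0.54 for SDC3 (CI -0.44 to 1.51, adjusted p = 0.814). The upper bounds allow a rise of more than 2-fold in each of the 3 genes. Without Chow+C 2 the value of SDC1 was -0.094 and that of SDC2 0.15. On the Western-style diet they were -0.22 (CI -1.59 to 1.16), -0.38 (CI -1.03 to 0.26) and 0.40 (CI -0.44 to 1.23) for SDC1, SDC2 and SDC3, each with an adjusted p = 0.999. Without WSD+C 4 they were -0.49, -0.026 and 0.13, and without WSD+T 6 SDC1 was at 0.0023. The median log2 fold change of all genes was -0.02 on chow and 0.00 on the Western-style diet. The testosterone by diet interaction, in which 0% of genes were called by edgeR, 4.52% were at an unadjusted p under 0.05 and DESeq2 called 3 (0.02%), gave -0.45 for SDC1 (adjusted p = 0.991), -0.71 for SDC2 (adjusted p = 0.933) and -0.14 for SDC3 (adjusted p = 0.996). Without WSD+C 4 these were -0.72, -0.35 and -0.41, and without Chow+C 2 the SDC1 value was -0.12.

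The share of SDC4 among all syndecan counts of a library was also compared, since it does not depend on how libraries are scaled to each other. SDC4 made up 2.74 ± 0.684% of syndecan counts in Chow+C, 3.66 ± 1.17% in WSD+C, 4.21 ± 1.62% in WSD+T and 5.31 ± 1.72% in Chow+T. The order of the group means was that of the CPM values. Unlike the CPM values, the shares of Chow+C (2.29 to 3.76%) and WSD+C (2.08 to 4.87%) overlapped. The share also moves with the counts of the other syndecans. It uses the SDC4 counts that chose the gene, so nothing is read from the order. These are shares of reads and not of molecules, because transcript lengths were not used here.

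With a cholesterol implant, the Western-style diet was compared with chow to ask what the diet did alone. SDC4 was 26.4 ± 3.12 CPM (n = 5) against 16.2 ± 2.31 CPM (n = 4), a log2 fold change of 0.70 (SE 0.248, CI 0.18 to 1.23), with all 5 diet libraries above all 4 controls. Its unadjusted p = 0.0111 by edgeR's test did not survive adjustment over all genes (adjusted p = 0.83). Of all genes, 0% were called, 5.08% had an unadjusted p under 0.05, and 0.293% had every WSD+C library above every Chow+C library. This comparison uses libraries whose SDC4 counts chose the gene, so it is not independent of that choice. Leaving out 1 library at a time, the value stayed between 0.65 and 0.81.

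SDC2 had a diet value of the same size as SDC4 but a wider one. Its levels in Chow+C were 144, 84.2, 113 and 194 CPM, and those in WSD+C were 219, 151, 129, 407 and 179 CPM. The groups overlapped, and WSD+C 4 was the highest of all 19 libraries. The log2 fold change was 0.70 (SE 0.344, CI -0.03 to 1.42, adjusted p = 0.83), and it was 0.34 without WSD+C 4. That library also had the highest summed markers of smooth muscle (2698 CPM, against 13.5 to 180 CPM elsewhere), of theca and stroma (338 CPM), of erythroid cells (128757 CPM), of lymphocytes (535 CPM) and of surface epithelium (402 CPM). Its summed macrophage markers were at 372 CPM, and its granulosa markers, at 1478 CPM, were the lowest. The part of these in the SDC2 level was not tested. SDC1 (0.06, CI -1.47 to 1.58, adjusted p = 0.995) and SDC3 (0.25, CI -0.68 to 1.17, adjusted p = 0.973) were not called. Without WSD+C 4 they were at 0.33 and 0.52, and without Chow+C 2 SDC1 was at -0.27.

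With a testosterone implant, the diet was compared with chow to ask whether it moved the syndecans when testosterone was already given. SDC4 averaged 34.0 ± 11.1 CPM (n = 6) in WSD+T and 45.3 ± 15.7 CPM (n = 4) in Chow+T, a log2 fold change of -0.42 (SE 0.233, CI -0.91 to 0.07, adjusted p = 0.862 by edgeR's test). The groups overlapped, with 3 of the 6 WSD+T libraries inside the Chow+T range. The value was -0.14 without Chow+T 3 and -0.57 without WSD+T 6. These testosterone libraries are among those whose SDC4 counts chose the gene, so this value is not independent of that choice either. The others were at -0.39 for SDC1 (adjusted p = 0.961), -0.01 for SDC2 (adjusted p = 0.999) and 0.11 for SDC3 (adjusted p = 0.984), and without WSD+T 6 at -0.17, -0.095 and 0.05. EdgeR called 0% of genes here, with 4.97% at an unadjusted p under 0.05, and DESeq2 called 4 genes (0.0266%).

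**Figure D2:**
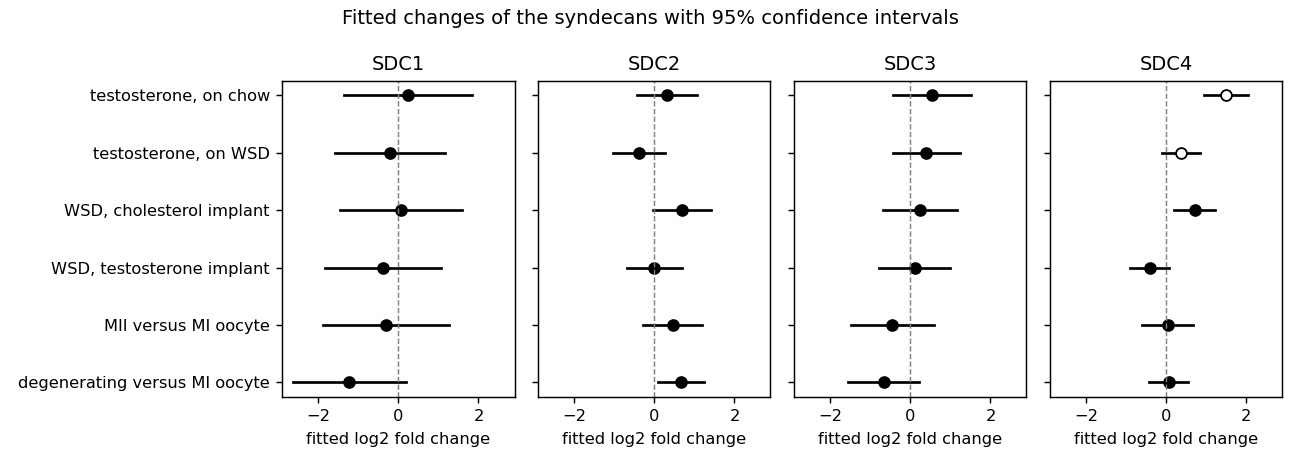
Fitted log2 fold changes (horizontal axes) of the 4 syndecans in 6 comparisons with their 95% confidence intervals; open circles mark the SDC4 testosterone values that carry no test. For SDC4 the intervals of testosterone on chow (0.93 to 2.04) and of the diet with a cholesterol implant (0.18 to 1.23) lie above 0. Both use libraries whose SDC4 counts chose the gene, so nothing is read from their place. The diet value had an adjusted p = 0.83 by edgeR's test. The SDC1 intervals are the widest of the family in each comparison.

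Oocyte class differed between the treatment groups, so SDC4 was also read within classes. Among follicles with an MI oocyte it was 14.8 to 19.6 CPM in 3 Chow+C libraries, 23.5 to 29.4 CPM in 3 WSD+C libraries, and 30.7 and 35.1 CPM in 2 WSD+T libraries. These 3 ranges did not overlap, as for 0.466% of all genes with the groups in this order. The libraries are among those that chose SDC4, so nothing is read from this. Among those with an MII oocyte it was 15.3 CPM in the Chow+C library, 27.7 CPM in the WSD+T library and 41.6 and 68.4 CPM in the Chow+T libraries. Among those with a degenerating oocyte it was 37.1 CPM in Chow+T, 25.4 and 30.0 CPM in WSD+C and 18.8, 40.5 and 51.1 CPM in WSD+T. The Chow+T library with a GV oocyte was at 34.2 CPM. Chow+C held no degenerating follicle and Chow+T no MI follicle, so testosterone on chow could be set side by side within a class in MII follicles alone, with 1 control. With oocyte class as a further term, the fitted testosterone value on chow was 1.57. That fit leaves out the GV library, Chow+T 4, which had the least SDC4 of its group. Leaving out Chow+T 4 alone, with no oocyte term, gave 1.60.

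**Figure D3:**
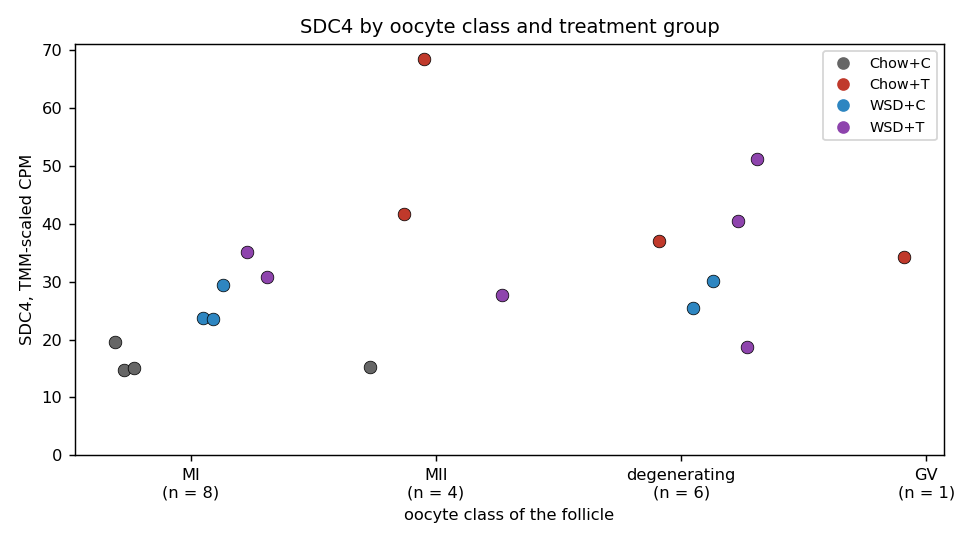
SDC4 in TMM-scaled CPM (vertical axis, from 0) in each library, by the oocyte class of the follicle and coloured by treatment group. Within MI follicles the Chow+C libraries (14.8 to 19.6 CPM), the WSD+C libraries (23.5 to 29.4 CPM) and the WSD+T libraries (30.7 and 35.1 CPM) do not overlap. This order and separation was found in 0.466% of all genes. These libraries are among those that chose SDC4, so nothing is read from this. Degenerating follicles spread from 18.8 to 51.1 CPM.

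The oocyte classes were then compared across treatment groups with group as a term, in 18 libraries without the GV follicle, which has no replicate. SDC4 averaged 24.0 ± 7.37 CPM (n = 8) with an MI oocyte, 38.2 ± 22.8 CPM (n = 4) with an MII oocyte and 33.8 ± 11.5 CPM (n = 6) with a degenerating one. Once group was in the fit, SDC4 differed from MI by 0.03 in MII follicles (CI -0.60 to 0.66, adjusted p = 0.9995 by edgeR's test) and by 0.05 in degenerating follicles (CI -0.44 to 0.55, adjusted p = 0.921). Without the group term these values were 0.67 (adjusted p = 0.743 by edgeR's test) and 0.49 (adjusted p = 0.495). Chow+T held no MI and Chow+C no degenerating follicle. The values without the group term thus take in the treatment differences that chose SDC4, and nothing is read from them.

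In degenerating against MI follicles, SDC1 and SDC3 had negative and SDC2 a positive fitted value, none of which passed adjustment. SDC1 was 101 ± 88.1 CPM (n = 6) against 196 ± 77.0 CPM (n = 8), a log2 fold change of -1.23 (SE 0.661, CI -2.65 to 0.18, adjusted p = 0.408 by edgeR's test). SDC2 was 221 ± 103 CPM against 141 ± 41.3 CPM, at 0.66 (SE 0.268, CI 0.09 to 1.23, unadjusted p = 0.0263, adjusted p = 0.288). SDC3 was 378 ± 198 CPM against 432 ± 167 CPM, at -0.67 (SE 0.418, adjusted p = 0.466). EdgeR called 0% of 14976 genes in this comparison, and 14.3% were at an unadjusted p under 0.05; 1 of the 4 syndecans was. DESeq2 called 801 genes (5.35%) and none of the syndecans, with adjusted p = 0.269 for SDC1, 0.172 for SDC2, 0.375 for SDC3 and 0.902 for SDC4. Without WSD+C 4 and WSD+T 6, both degenerating and both high in leukocyte markers, SDC1 was at -0.70, SDC2 at 0.36, SDC3 at -0.39 and SDC4 at -0.086, and once the leukocyte score entered the fit they were at -0.45, 0.17, -0.48 and -0.36. Without WSD+C 4 alone SDC3 was at -0.27. In MII against MI follicles no syndecan passed (adjusted p = 0.9995 for each), where edgeR called 0% of genes, 3.92% were at an unadjusted p under 0.05 and DESeq2 called 6 genes (0.0401%).

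SDC1 was not spread evenly over the libraries. In Chow+C it was 192, 37.0, 276 and 141 CPM, and in Chow+T 207, 191, 182 and 181 CPM. In WSD+C it was 176, 253, 239, 28.4 and 145 CPM. The 6 WSD+T libraries ran from 12.3 CPM through a median of 168 to 251 CPM. Thus 4 libraries, Chow+C 2, WSD+C 4, WSD+T 3 and WSD+T 6, were at 12.3 to 37.0 CPM, and the fifth lowest of all libraries was at 141 CPM, 3.80 times the fourth. They came from 3 treatment groups, and none from Chow+T, whose mean of 190 ± 12.0 CPM had the smallest SD of the 4 groups. Of the 4, Chow+C 2 held an MI oocyte and the other 3 a degenerating one. The remaining 3 degenerating follicles, Chow+T 1, WSD+C 5 and WSD+T 4, were at 207, 145 and 184 CPM.

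Other measures of these 4 libraries were not alike. The leukocyte scores of WSD+T 6, WSD+C 4 and WSD+T 3 were the 3 highest of all (7.55, 7.15 and 4.73), while Chow+C 2 was at 1.26, within the range of the rest. Summed macrophage markers were at 2876, 372, 84.4 and 17.2 CPM in WSD+T 6, WSD+C 4, WSD+T 3 and Chow+C 2. Over whole groups they ran from 14.8 to 22.6 CPM in Chow+C, 15.9 to 158 CPM in Chow+T, 11.5 to 372 CPM in WSD+C and 12.6 to 2876 CPM in WSD+T, with 2 of 12 markers at 1 CPM in every library. CYP19A1, the aromatase that makes oestradiol in granulosa cells, was lowest in the same 4 libraries, at 91.8, 64.0, 146 and 108 CPM in Chow+C 2, WSD+C 4, WSD+T 3 and WSD+T 6. The fifth lowest library for CYP19A1 was at 161 CPM, so no gap separated them. Plasma cell markers, of a blood cell type known for SDC1, were at 7.62 to 70.3 CPM in sum, with 1 of 7 at 1 CPM in every library and the highest sum in WSD+C 4, a library low in SDC1. Surface epithelium markers, of the other tissue known for SDC1, summed to 402, 227, 76.0 and 57.9 CPM in WSD+C 4, WSD+T 3, WSD+T 6 and Chow+C 2. The first 2 were the highest of all libraries, and the remaining 15 libraries were at 16.3 to 146 CPM. Members of this list differed. KRT18 alone was at 139 CPM in WSD+T 3 and 109 CPM in WSD+C 4. EPCAM was at 2.31, 0.156, 0.211 and 0.0744 CPM in WSD+C 4, WSD+T 3, WSD+T 6 and Chow+C 2. In the remaining 15 libraries EPCAM ran from 0.108 to 2.63 CPM. The part of other cell types in the SDC1 levels was not tested.

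HS3ST1, which adds the sulfate that gives heparan sulfate its antithrombin-binding site, was lowest in the same 4 libraries as SDC1. It is on the fixed panel of named genes, and its match with SDC1 was noticed after its values were seen. CYP19A1, TPX2, UBE2QL1 and PIP5K1B were lowest in these 4 libraries too. The gene ranked 100 by Pearson's r with SDC1 was still at 0.866. The share of all genes lowest in these 4 was not counted, so nothing particular to HS3ST1 is read from the match. HS3ST1 was at 161, 85.2, 64.9 and 136 CPM in Chow+C 2, WSD+C 4, WSD+T 3 and WSD+T 6, and the other 15 libraries were at 298 to 664 CPM. In testosterone on chow, HS3ST1 had a log2 fold change of 0.39 (SE 0.586, adjusted p = 0.907 by edgeR's test).

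**Figure D4:**
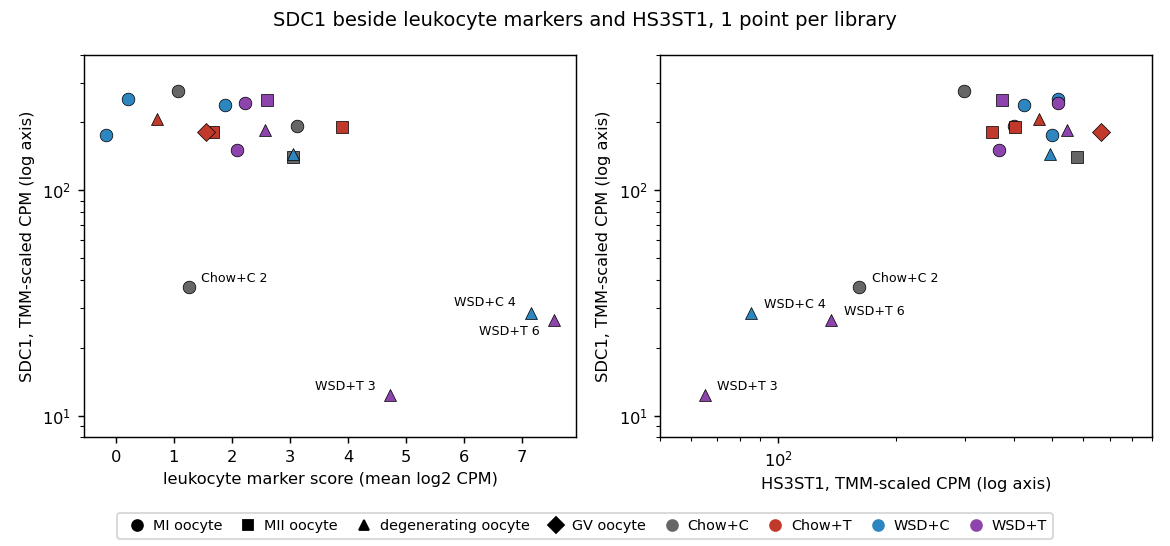
SDC1 in TMM-scaled CPM (vertical log axes) against the leukocyte marker score (left, mean log2 CPM) and against HS3ST1 in TMM-scaled CPM (right, log axis), 1 point per library. The 4 named libraries lie at or below 37.0 CPM of SDC1 and at or below 161 CPM of HS3ST1, and Chow+C 2 differs from the other 3 in its leukocyte score of 1.26.

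SDC3 was the most variable of the family within WSD+C. Its levels were 469, 257, 191 and 318 CPM in Chow+C and 495, 459, 451 and 385 CPM in Chow+T. In WSD+C they were 323, 706, 466, 60.1 and 276 CPM, which held both the highest and the lowest of all 19 libraries, the lowest being WSD+C 4. In WSD+T they ran from 318 through a median of 517 to 584 CPM. The group means were 309 ± 119, 448 ± 46.1, 366 ± 240 and 483 ± 99.1 CPM in Chow+C, Chow+T, WSD+C and WSD+T. Both testosterone groups had the higher mean within their diet, but neither difference passed the test. For SDC2 the means were 134 ± 47.2, 167 ± 33.1, 217 ± 111 and 166 ± 59.7 CPM in the same order, with each neighbouring pair of groups overlapping.

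Across the 19 libraries no relation among SDC2, SDC3, SDC4 and the marker scores passed adjustment. SDC2 and SDC3 had Pearson's r = -0.452 (permutation p = 0.0599, which 9 relations adjust to p = 0.18). Spearman's rho was -0.151 (permutation p = 0.535, adjusted to 0.906). Leaving out WSD+C 4 and Chow+C 2 brought r to -0.0997, so the relation rested on them. SDC4 had r = 0.299 with SDC2 (rho = 0.339) and r = 0.307 with SDC3 (rho = 0.314), each with a permutation adjusted p = 0.274 for r and 0.51 for rho. Without the 2 libraries farthest from the median of SDC2 or SDC3 these were 0.294 and 0.299, and after group means were subtracted 0.25 and 0.0481. For SDC3 and the granulosa score r was 0.473 and rho -0.0298 (permutation p = 0.0542 and 0.906, adjusted to 0.18 and 0.906), and r was -0.137 without WSD+C 4 and WSD+T 6, on which it rested. For SDC4 and the leukocyte score r was 0.282 and rho 0.291 (permutation p = 0.244 and 0.226, adjusted to 0.274 and 0.51), and r was 0.191 without WSD+T 6 and WSD+C 4. For SDC2 and the leukocyte score r was 0.572 and rho 0.389 (permutation p = 0.0118 and 0.0998, adjusted to 0.106 and 0.51), and r was 0.239 without the same 2 libraries. Subtracting group means made the relations of SDC4 with SDC2 and SDC3 smaller in size, as given above, and some others larger. Among the larger, r became -0.534 for SDC2 and SDC3 and 0.551 for SDC3 and the granulosa score. With the leukocyte score r became 0.429 for SDC4 and 0.67 for SDC2. The values after subtraction carry no test. The labels give no batch within which to repeat these, and no pooled r is given for SDC1, whose libraries fell into separate ranges.

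Genes whose pattern was most like each syndecan were found by Pearson's r of log2 CPM over the 19 libraries, among 11732 genes with a symbol. For SDC4 the nearest were GABPB1 (r = 0.80), DYNC1LI1, a light intermediate chain of dynein (0.796), AFTPH (0.789), the signal recognition particle RNA Metazoa_SRP (0.785), C7orf50 (0.784) and RAP1B, a small GTPase of the Ras family (0.781). After group means were subtracted, C7orf50 (0.843) and DYNC1LI1 (0.812) stayed near the top and were joined by TAGLN2 (0.811), PPP2R2A (0.802), the kinase MAP2K3 (0.784) and NEDD9, a scaffold protein of focal adhesions (0.774). NEDD9 averaged 21.6 CPM in Chow+C, 70.7 CPM in Chow+T, 39.5 CPM in WSD+C and 61.6 CPM in WSD+T, the group order of SDC4. GABPB1, AFTPH, Metazoa_SRP and RAP1B had this order too. All were picked for likeness to SDC4 in these libraries, so nothing is read from it. The genes nearest to SDC1 were TPX2, a spindle assembly protein (0.954), UBE2QL1 (0.952) and PIP5K1B, a phosphoinositide kinase (0.949). TPX2 was at 74.7, 24.6, 26.2 and 53.8 CPM in Chow+C 2, WSD+C 4, WSD+T 3 and WSD+T 6 and at 335 CPM or more in each of the other 15, so these r values describe the same 4 libraries. For SDC2 the nearest genes were FAM210B (0.859) and NCK2 (0.855), and for SDC3 ABHD12 (0.949), the lysosomal galactosidase GLB1 (0.92) and the acyl-CoA binding protein DBI (0.918). Ranked by Spearman's rho, 3 of the 6 genes nearest to SDC4, 1 of 3 for SDC3 and 0 of 3 for SDC1 and SDC2 were kept, and without WSD+C 4 and WSD+T 6 2 of 6 for SDC4 and 0 of 3 for each of the others. The points share libraries and scaling, and the values are descriptions.

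The genes that build, trim, bind or shed syndecans were followed in 8 lists of 115 genes, of which 101 were tested. EdgeR called 0 of them in each of the 7 comparisons. With testosterone on chow, 3 of 101 (2.97%) were at an unadjusted p under 0.05, against 7.18% of all genes. With the diet and a cholesterol implant 2 of 101 (1.98%) were, against 5.08%. In degenerating against MI follicles 18 of 101 (17.8%) were, against 14.3%. Across the comparisons the medians of all genes lay between -0.02 and 0.04.

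Enzymes that make the heparan sulfate chain had a median log2 fold change of 0.09 with testosterone on chow, positive in 11 of 13, where 48.2% of all genes were positive. UGDH, which makes the uronic acid building block of the chain, had a mean of 94.5 ± 18.3 CPM (n = 4) in Chow+T against 70.2 ± 11.9 CPM (n = 4) in controls (0.43, SE 0.202, adjusted p = 0.688 by edgeR's test). The chain polymerase genes EXT1 (0.18) and EXT2 (0.37) were not called. Genes of modification and trimming had a median of 0.12, positive in 8 of 11; leaving out 1 library moved it between 0.027 (without Chow+T 4) and 0.29 (without Chow+T 1). Among them NDST1, which starts sulfation of the chain, had group means between 113 and 133 CPM, and SULF2, an enzyme that removes sulfate at the cell surface, was at 158 ± 17.7 CPM in Chow+T against 105 ± 33.3 CPM in controls (0.59, SE 0.474, adjusted p = 0.796).

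Other heparan sulfate proteoglycans had a median of 0.12, positive in 7 of 10, and of 0.33 without Chow+C 1. The basement membrane proteoglycan HSPG2 had means of 1372 ± 274 CPM with testosterone and 1263 ± 560 CPM without (0.12, adjusted p = 0.958 by edgeR's test). AGRN, the proteoglycan agrin, was at -0.59 (SE 0.212, unadjusted p = 0.0124, adjusted p = 0.658), the opposite sign to SDC4. The glypican gene GPC4 was at 0.36 (SE 0.562, adjusted p = 0.908).

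Proteins that bind the syndecan tail had a median of 0.00 with testosterone on chow, positive in 8 of 16. SDCBP, which encodes syntenin, averaged 204 ± 65.4 CPM in Chow+C, 295 ± 101 CPM in Chow+T, 233 ± 32.2 CPM in WSD+C and 333 ± 155 CPM in WSD+T (0.53 on chow, SE 0.318, adjusted p = 0.708 by edgeR's test). PRKCA, the protein kinase C isoform that the SDC4 tail binds, was at 55.2 ± 16.6 CPM in Chow+T against 35.5 ± 9.51 CPM in controls (0.64, SE 0.433, adjusted p = 0.749). PDCD6IP, the syntenin partner ALIX, was at -0.04 (SE 0.147). Integrin and focal adhesion genes had a median of 0.26, positive in 13 of 17, with ROCK1, a kinase downstream of RHOA, at 0.44 (SE 0.192, adjusted p = 0.67) and ITGB1 at 0.26 (SE 0.356, adjusted p = 0.889).

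Sheddases and their inhibitors had a median of -0.051, positive in 6 of 13, which turned positive without any 1 of Chow+C 1, Chow+C 3, Chow+T 1, Chow+T 3 or Chow+T 4 (up to 0.28, without Chow+C 3) and with oocyte class as a further term (0.23). ADAM17 (0.31, SE 0.240), MMP14 (0.11, SE 0.378) and ADAM10 (0.15, SE 0.323), proteases known to release syndecan ectodomains, were not called. Ligands that bind heparan sulfate had a median of 0.26, positive in 11 of 16, which was 0.079 without Chow+T 3 and turned to -0.23 with oocyte class as a further term. Fibronectin, FN1, a matrix ligand of SDC4, had means of 1524 ± 882 CPM with testosterone and 939 ± 453 CPM without (0.70, SE 0.525, adjusted p = 0.778 by edgeR's test). Heparin-binding serpins had a median of -0.58, positive in 1 of 5, and of 0.38 without Chow+C 2.

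With the Western-style diet and a cholesterol implant, ligands had a median of 0.69, positive in 12 of 16, and of 0.07 without WSD+C 4. The other 7 lists had medians between -0.23 and 0.23. CD44, a hyaluronan receptor that can carry heparan sulfate, was at 4.15 (SE 1.80, adjusted p = 0.83 by edgeR's test) and CCN1, a matricellular ligand, at 1.59 (SE 0.707, adjusted p = 0.83). DESeq2 gave no adjusted p for CD44 here. Neither gene was read without WSD+C 4, the WSD+C library with the highest leukocyte score (7.15), and its part was not tested.

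In degenerating against MI follicles DESeq2, but not edgeR, called 4 of the 101 list members, all higher. It called 801 of all 14976 genes (5.35%). The share in the lists was no larger, so nothing about the lists is read from this count. HPSE, the heparanase that cuts heparan sulfate, was at 3.17 (SE 0.851, edgeR adjusted p = 0.164, DESeq2 adjusted p = 9.74e-04). CD44 was at 4.53 (SE 1.32, edgeR adjusted p = 0.169, DESeq2 adjusted p = 3.01e-04), MMP9, a gelatinase made by neutrophils and macrophages, at 4.49 (SE 1.57, edgeR adjusted p = 0.227, DESeq2 adjusted p = 0.00747) and THBS1, the matrix protein thrombospondin 1, at 2.04 (SE 0.687, edgeR adjusted p = 0.205, DESeq2 adjusted p = 0.032). HPSE, CD44 and MMP9 are also made by white blood cells, and the 3 highest leukocyte scores were in degenerating follicles; their part was not tested. The modification and trimming list as a whole had a median of -0.48, positive in 2 of 11, and of -0.19 without WSD+C 4.

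**Figure D5:**
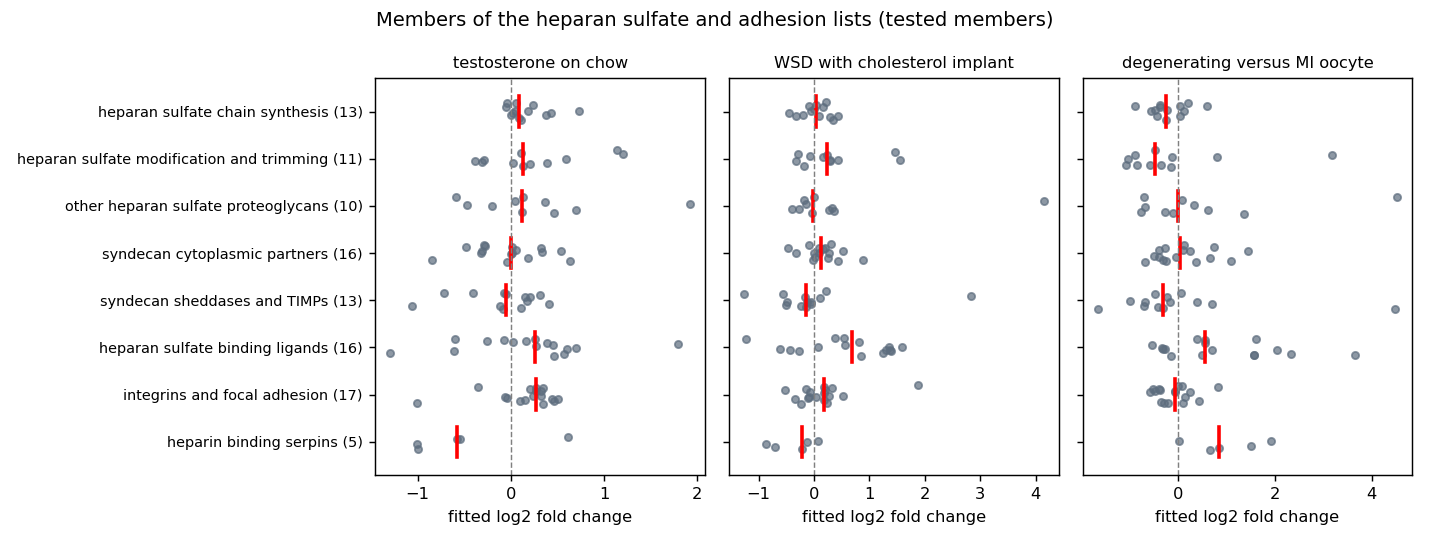
Fitted log2 fold changes (horizontal axes) of every tested member of the 8 lists in 3 comparisons, with the list's median as a red bar and its number of tested members in brackets; vertical scatter within a list has no meaning. Medians for testosterone on chow lie between -0.58 (serpins) and 0.26, and no point was called by edgeR.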

How the data were processed

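The deposited table holds raw counts per gene in 1 column for each of 19 libraries, and all columns matched a sample's label. Libraries were polyA-selected and non-directional, per the labels' protocols, so overlapping genes cannot be told apart by strand. The submitters' processing notes name Trimmomatic (read trimming) and STAR (alignment), and their versions, like the build and the annotation, were not given in the sources used here. Rows that name no gene (4) were left out. Low genes were removed with filterByExpr at a minimum count of 10 and a minimum total of 15, and libraries were scaled by TMM and tested two-sided with edgeR 4.0.16 (robust quasi-likelihood, R 4.3.3, threshold 0.05, adjustment over all genes), in a fit of the 4 treatment groups and a second of oocyte class with group as a term. DESeq2 1.42.0 was an alternative. The script was tested on simulated data with large known changes and a smaller dispersion than in these data. That run says nothing about the power to find changes of the size seen here. The members, lists and tests were chosen with earlier results of these data known. Genes named are the syndecans, the genes most like them, the 3 members of each list with the highest mean level, a fixed panel, and members called or at an unadjusted p under 0.05, the last added after their values were seen. One gene that this rule names is not reported here. Log2 CPM used a prior count of 1. The common dispersion was 0.34, a biological coefficient of variation of 0.583, which limits precision more than depth does. Levels of different genes were not compared, because lengths were not used here.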

Additional observations from a re-analysis of the deposited data

Results flagged for a closer look

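SDC4 in Chow+C 1 was at 19.6 CPM, far from the other 3 control libraries, of which the nearest was at 15.3 CPM; the gap was 0.893 of the group's range. It was the 1 sample so marked among 28 groups of libraries examined, and chance marks about 5% of groups.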

How the results depend on the processing

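EdgeR called 0 genes in each comparison, and DESeq2 called 5 with testosterone on chow, 0 with testosterone on the Western-style diet, 0 with the diet and cholesterol, 4 with the diet and testosterone, 3 in the interaction, 6 in MII and 801 in degenerating follicles. Degenerating follicles gave 574 calls without the treatment term, and 0 to 226 when 1 library was left out (226 without Chow+T 1). No syndecan value that carries a p, which leaves out SDC4 with testosterone and in the interaction, passed the threshold in edgeR under any alternative run. With the leukocyte score as a covariate, signs turned for SDC1 with testosterone on the Western-style diet (0.19), with the diet and cholesterol (-0.13), in the interaction (6.06e-04) and in MII follicles (0.41), for SDC3 in the interaction (0.25), and for SDC4 in MII (-0.22) and degenerating follicles (-0.36). With oocyte class as a term they turned for SDC2 with testosterone on chow (-0.17) and the diet with testosterone (0.22), and for SDC3 with the diet and testosterone (-0.061). That fit also leaves out the GV library, Chow+T 4. Without both WSD+C 4 and WSD+T 6, an alternative chosen after seeing the data, SDC4 in degenerating follicles was at -0.086. The cause of these turns was not tested. Leaving out 1 library, ranges that crossed 0 were -0.094 to 0.62 (SDC1, testosterone on chow), -0.49 to 0.026 (SDC1, testosterone on the Western-style diet), -0.27 to 0.45 (SDC1) and -0.13 to 0.53 (SDC3) for the diet with cholesterol, -0.16 to 0.12 (SDC2, diet with testosterone), -0.42 to 0.25 (SDC3, interaction), -0.75 to 0.075 (SDC1) and -0.18 to 0.25 (SDC4) in MII, and -0.088 to 0.19 (SDC4) in degenerating follicles. SDC4 kept its sign in the 5 treatment comparisons throughout. These comparisons use the libraries whose SDC4 counts chose the gene, so nothing is read from this. No paired analysis was possible because replicate numbers follow accession order and pair no animals.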
